A study of Mus musculus with 14 samples.

Results

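The class II genes of the major histocompatibility complex (MHC) and their companions were followed in the hippocampus of lupus-prone mice. The 7 genes were found by looking up the symbols H2-Aa, H2-Ab1, H2-Eb1, Cd74, Ciita, H2-DMa and H2-DMb1 in the GENCODE M21 annotation and taking the rows with those identifiers, 7 of 55536 Ensembl genes in the count table. Bulk RNA-seq covered 14 mice at 10 months of age, all on a C57BL/6 background, with 1 library per mouse. MRL mice (n = 4) are B6.MRL-Fas lpr/J animals, which carry the lpr mutation of the death receptor gene Fas, and MRL-IRAK4-KD mice (n = 4) are MRL mice crossed with animals whose IRAK4, a kinase of innate immune signaling, is kinase-dead. C57BL/6 mice (n = 3) carry neither mutation. IRAK4-KD mice (n = 3) carry, by their label, the kinase-dead IRAK4 without lpr. Of these 3 libraries, 1 had the Fas transcript pattern of the lpr mice, as given below. Neither mutation is restricted to a cell type, the animals were perfused with cold PBS before dissection, and the labels give no sex. Since each library holds the RNA of a whole hippocampus, fewer cells of a type and less RNA per cell cannot be told apart.

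Class II molecules are pairs of an alpha and a beta chain that display peptides taken up from outside the cell to CD4 T cells. The invariant chain, encoded by Cd74, escorts newly made pairs and blocks their groove until H2-DM, itself a pair of H2-DMa and H2-DMb1, exchanges the last fragment of the invariant chain for a peptide. Transcription depends on the coactivator CIITA, which interferon gamma induces through IRF1 and which binds no DNA itself but joins the RFX, CREB and NF-Y factors seated on the X and Y boxes of class II promoters. In the healthy brain, class II is known mainly from macrophages and dendritic cells at the borders, the meninges, perivascular spaces and choroid plexus, and little is found in resting microglia. Mice of the b haplotype, such as C57BL/6, make the I-A pair from H2-Aa and H2-Ab1, while H2-Eb1 is transcribed without a functional partner gene.

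In mm10, H2-DMa (34119541 to 34139101, plus strand), H2-DMb1 (34153072 to 34160230, plus), H2-Ab1 (34257689 to 34269419, plus), H2-Aa (34282744 to 34287823, minus) and H2-Eb1 (34305867 to 34316674, plus) lie within 197134 bases of chromosome 17. Ciita lies on chromosome 16 (10480059 to 10528418, plus), and Cd74 lies elsewhere. RefSeq promoter windows of the same build (GRCm38.p6, 250 bases before to 50 after each start) were at hand for 4 members, and the upstream bases of H2-Aa and H2-Eb1 are shown because these genes varied together across the mice while H2-DMa did not. Each line gives the 120 bases before the start site, 5′ to 3′ on the strand of the gene, H2-Aa from chr17:34287824-34287943 (minus) and H2-Eb1 from chr17:34305747-34305866 (plus). The capitals mark the letters GNAACT, where N is any base, found in the X box, and TGATTGG, those of the Y box.
H2-Aa: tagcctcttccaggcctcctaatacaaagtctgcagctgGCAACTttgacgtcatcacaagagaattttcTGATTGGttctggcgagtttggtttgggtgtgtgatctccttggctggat
H2-Eb1: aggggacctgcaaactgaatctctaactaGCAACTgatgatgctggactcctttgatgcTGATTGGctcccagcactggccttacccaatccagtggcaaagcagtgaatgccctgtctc

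The starts of these letters stood 31 bases apart in H2-Aa and 30 in H2-Eb1, and the window of H2-DMb1 held the same pair 31 bases apart. From the first capital, the stretch read GTAACTgatgatgc in H2-DMb1, GCAACTgatgatgc in H2-Eb1 and GCAACTttgacgtc in H2-Aa. The letters of H2-DMb1 lie upstream of its RefSeq start only, since its GENCODE M21 start (34153072) comes before them and places them inside the annotated gene. The letters were chosen after these windows had been read and were searched on both strands without overlap of the pair. GNAACT alone occurred in 42.8% and TGATTGG alone in 7.82% of all 32851 promoter windows of 300 bases, whereas the pair at 30 to 31 bases occurred in 12 windows (0.0365%), 4 of them those of H2-Aa, H2-Eb1, H2-DMb1 and the class II beta chain gene H2-Eb2. Neither of the 2 windows of H2-DMa held the pair. A match of letters is a description of the sequence and not a measured binding site, and no window was at hand for H2-Ab1, Cd74 and Ciita.

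The deposited counts summed to 279941472 to 572398312 per library. StringTie derives them from coverage, so that these totals are not numbers of reads and the reads behind a value are not known here. For the same reason no upper limit is set on a count of 0. The members had between 238 counts (Ciita) and 14253 counts (Cd74) in a library. Levels are given as CPM, counts scaled to a common library size, after TMM scaling, a correction for library composition. Of the label checks, Irak4 ran from 1.54 to 2.72 CPM without separating the groups, and counts do not show a kinase-dead mutation. The Fas transcript called full-length here (Fas-201, 1481 bases) had 0 counts in all 8 lpr mice. It had 345 to 584 counts in C57BL/6 and in 2 IRAK4-KD mice, but also 0 in the third library labelled IRAK4-KD (replicate 3). Another form, Fas-204 (1625 bases), had 268 to 964 counts in the lpr mice, 514 in that library and 0 to 7 in the remaining mice. Fas as a whole averaged 1.38 CPM in MRL and 1.31 CPM in C57BL/6 mice. The library labelled IRAK4-KD replicate 3 had the highest striatal markers (a sum of 258 CPM against 56.2 to 118 elsewhere). MRL-IRAK4-KD replicate 4 stood apart on the first principal component (256.8 against -40.9 to 7.4) with 7630 CPM of the choroid plexus gene Ttr. Hippocampal markers were present in every library (a sum of 788 CPM or more), and the differences of the members are also given without these libraries where they matter.

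MRL replicate 4 carried the most RNA of the class II chains and their invariant chain of all 14 mice, and the remaining MRL mice lay among the mice of the other groups. H2-Aa, the alpha chain of I-A, had 2.6, 1.87, 2.25 and 13.8 CPM in the MRL mice, 1.42, 2.03, 2.99 and 4.99 CPM in the MRL-IRAK4-KD mice, 2.58, 4.56 and 1.37 CPM in the C57BL/6 mice and 2.34, 1.86 and 0.795 CPM in the IRAK4-KD mice. MRL replicate 4 thus stood at 6.14 times the median of the other 13 mice and held 67.3% of the H2-Aa signal of its group, and the 4 groups overlapped.

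H2-Ab1, the beta chain of I-A, had 1.72, 1.24, 1.57 and 7.29 CPM in MRL, 0.879, 1.04, 2.22 and 5.34 in MRL-IRAK4-KD, 1.5, 2.2 and 0.89 in C57BL/6 and 1.68, 1.1 and 0.501 in IRAK4-KD mice. The highest value was again that of MRL replicate 4 and the next that of MRL-IRAK4-KD replicate 4, and the lowest was that of the library labelled IRAK4-KD replicate 3. H2-Eb1, the beta chain of I-E, had 2.11, 1.54, 2.39 and 7.92 CPM in MRL, 1.15, 1.7, 2.28 and 4.13 in MRL-IRAK4-KD, 2.35, 3.72 and 1.54 in C57BL/6 and 1.94, 2.14 and 0.932 in IRAK4-KD mice, with the same 3 mice at its ends. Cd74 had 4.72, 3.81, 5.27 and 29.8 CPM in MRL, 3.33, 2.66, 5.38 and 17.2 in MRL-IRAK4-KD, 5.11, 8.36 and 3.28 in C57BL/6 and 5.18, 4.31 and 1.77 in IRAK4-KD mice. MRL replicate 4 stood at 6.31 times and MRL-IRAK4-KD replicate 4 at 3.65 times the median of the other mice for Cd74, and no group was separate from another.

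The 2 genes of the peptide-editing pair H2-DM differed in which mice were high. H2-DMb1 had 1.81, 1.69, 1.82 and 3.27 CPM in MRL, 1.62, 1.68, 1.92 and 2.88 in MRL-IRAK4-KD, 1.82, 1.63 and 1.54 in C57BL/6 and 1.94, 1.68 and 1.32 in IRAK4-KD mice, so that its order shared both ends with the class II chains over a narrower range. H2-DMa had 12.5, 13.1, 11.2 and 11.6 CPM in MRL, 13.3, 11.1, 12.1 and 22.4 in MRL-IRAK4-KD, 11.5, 11.9 and 14.1 in C57BL/6 and 11, 10.5 and 11 in IRAK4-KD mice. MRL replicate 4, the highest mouse for 5 members, was ordinary for H2-DMa (0.968 times the median of the others), and only MRL-IRAK4-KD replicate 4 stood out. H2-DMa overlaps the much more abundant Brd2 on the opposite strand (947080 counts in all libraries against 74928), and whether counting used strand is not given in the sources used here, so the level of H2-DMa is uncertain. H2-DMb1 has a near-identical neighbour, H2-DMb2 (0.295 to 0.721 CPM), with which reads could be shared.

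Ciita was the lowest member. It had 0.888, 1.16, 1.1 and 2.05 CPM in MRL, 0.881, 1.15, 0.919 and 0.766 in MRL-IRAK4-KD, 2.07, 0.87 and 1.28 in C57BL/6 and 1.01, 0.901 and 0.836 in IRAK4-KD mice. C57BL/6 replicate 1 had as much Ciita as MRL replicate 4 with 2.58 CPM of H2-Aa, and MRL-IRAK4-KD replicate 4, second in H2-Aa, had the least Ciita of the 14. Ciita overlaps Dexi on the opposite strand (156055 counts against 6819), which limits what its counts can show.

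**Figure D1:**
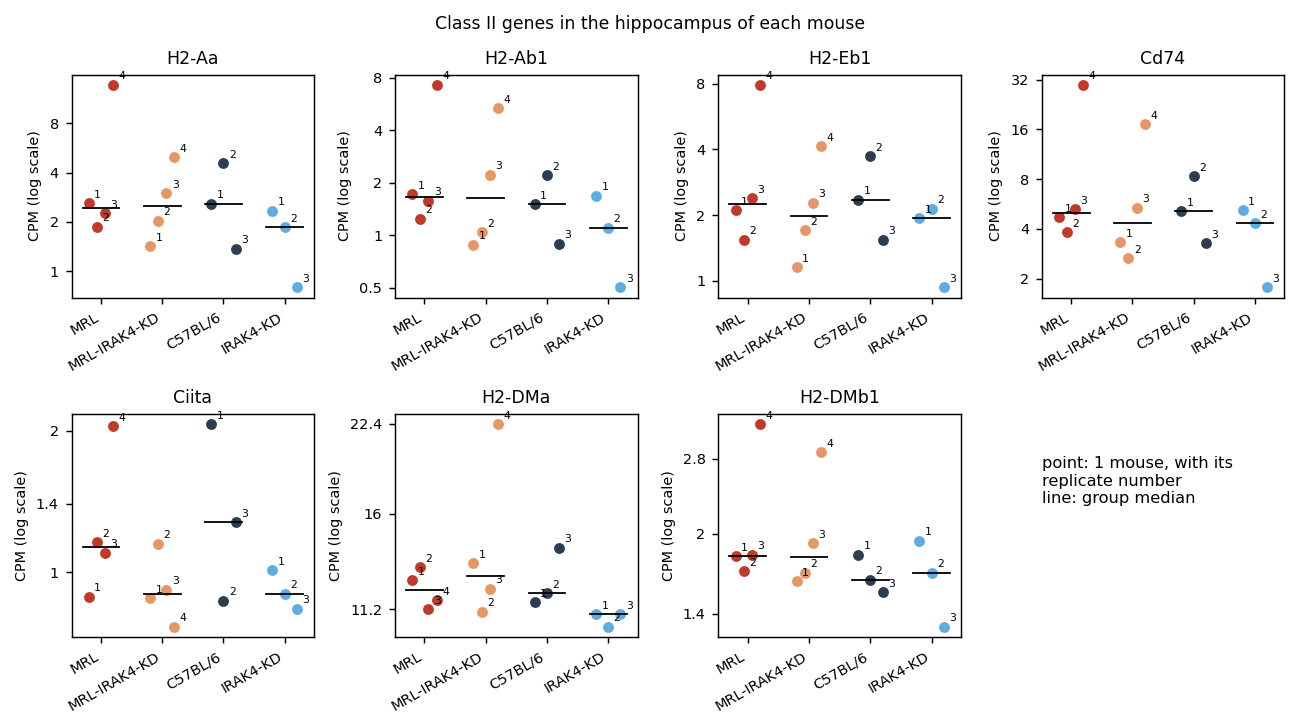
Level of each class II gene in CPM (log scale) in the 14 mice, 1 point per mouse with its replicate number, and a line at the group median. MRL replicate 4 lies at the top for H2-Aa (13.8 CPM), H2-Ab1, H2-Eb1, Cd74 (29.8 CPM) and H2-DMb1, and the other mice of the 4 groups overlap.

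Per kilobase of transcript, which allows genes to be compared, H2-DMa was the most abundant member at a median of 9.13 CPM per kilobase over the 14 mice. Cd74 followed at 3.78, H2-Aa at 2.03, H2-Eb1 at 1.34, H2-Ab1 at 1.29, H2-DMb1 at 1.28 and Ciita at 0.331. Cd74 ranged from 1.39 to 23.8 on this scale and overlapped H2-DMa only through its highest mice, and the middle 4 genes overlapped one another. The ratio of H2-Aa to H2-Ab1 per kilobase, 2 chains that pair in the cell, had a median of 1.64 and ran from 0.996 to 2.2. The ratio of H2-DMa to H2-DMb1 had a median of 7.06 and ran from 3.92, in MRL replicate 4, to 9.2.

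H2-Ab1, H2-Eb1 and Cd74 rose and fell with H2-Aa from mouse to mouse. On a log2(CPM + 0.1) scale over the 14 mice, Pearson's r with H2-Aa was 0.96 for H2-Ab1 (Spearman's rho 0.96), 0.98 for H2-Eb1 (rho 0.87) and 0.96 for Cd74 (rho 0.91). The permutation p of each r was 1.0e-05, the smallest that 100000 permutations can give, and 2.0e-05 after Benjamini-Hochberg adjustment over the 6 other members. Without MRL replicate 4 and the library labelled IRAK4-KD replicate 3, the 2 mice farthest from the median of H2-Aa, r was still 0.92, 0.94 and 0.89, and r of the deviations from the group means was 0.96, 0.98 and 0.95. The relations thus held among mice of the same group.

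H2-DMb1 went with H2-Aa less tightly (r = 0.88, rho = 0.78, adjusted permutation p = 1.3e-04), and r was 0.67 without the 2 farthest mice. For Ciita r was 0.38 (rho 0.00, adjusted permutation p = 0.211) and turned to -0.32 without those 2 mice, and for H2-DMa it was 0.21 (rho 0.18, adjusted permutation p = 0.39) and 0.40 without them. Among 18107 genes outside the members with a mean of at least 0.5 CPM, none reached the r of H2-Ab1, H2-Eb1 or Cd74. Ranked with them, H2-DMb1 would have come 5th, Ciita 1917th and H2-DMa 5153rd.

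**Figure D2:**
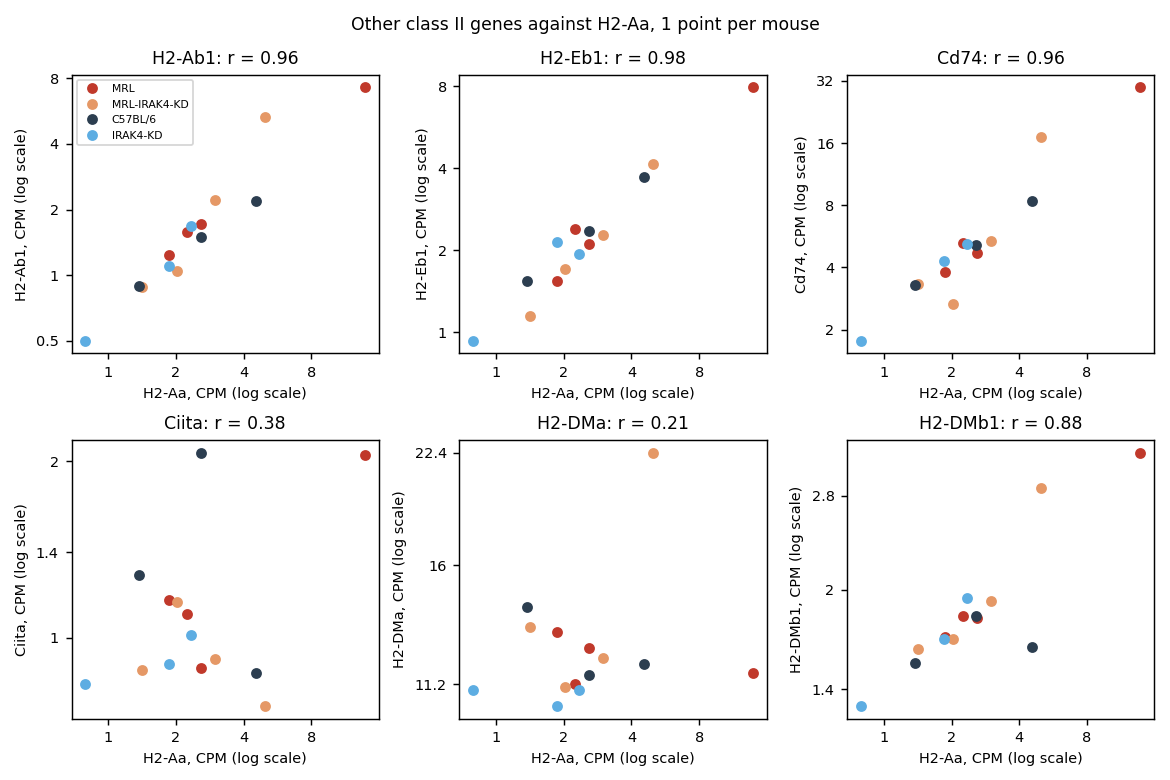
CPM of each other class II gene against CPM of H2-Aa (both axes log scale), 1 point per mouse, colored by group, with Pearson's r over the 14 mice. H2-Ab1 (r = 0.96), H2-Eb1 (r = 0.98) and Cd74 (r = 0.96) follow a line through all groups, whereas Ciita (r = 0.38) and H2-DMa (r = 0.21) do not.

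The genes outside the members whose levels were most like H2-Aa over the 14 mice were Anxa2 (r = 0.918), Serpinb6b (0.908), F13a1 (0.903), Gm20559 (0.901), Rin3 (0.875), Slc22a2 (0.867), Cxcl16 (0.864), Emp3 (0.862), Cp (0.860) and Nacc2 (0.857). These are descriptions of the highest of 18107 values and were given no test. F13a1 encodes the A subunit of coagulation factor XIII and is a marker of border macrophages, and it ran from 1.29 to 5.06 CPM with MRL replicate 4 at the top. Anxa2, a membrane-binding annexin, ran from 5.56 to 19.1 CPM with the same mice at both ends as H2-Aa. Emp3 had the highest rank correlation of the 10 with H2-Aa (rho = 0.97), and r was 0.95 without MRL replicate 4 and MRL-IRAK4-KD replicate 4. Nacc2 moved only between 98.1 and 116 CPM.

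Since class II lies on few brain cells, the summed level of 13 lists of cell type markers was set beside H2-Aa. Border-associated macrophage markers (Mrc1, Cd163, Lyve1, F13a1, Pf4, Ms4a7 and Cbr2) summed to 9.52 to 18.6 CPM in MRL, 7.98 to 12.4 in MRL-IRAK4-KD, 6.44 to 13.3 in C57BL/6 and 5.68 to 10.2 in IRAK4-KD mice. Their sum went with H2-Aa at r = 0.93 (rho = 0.95, adjusted permutation p = 1.3e-04 over the 13 lists), r was 0.86 without the 2 farthest mice and 0.92 for the deviations from the group means. Each of the 7 markers had an r above 0.5 (0.56 to 0.90), and none was at 0 counts in MRL replicate 4. Without the 2 farthest mice r was 0.25 for Cd163 and 0.34 for Mrc1 and above 0.5 for the other 5. In that mouse the sum was 1.81 times the median of the others, where H2-Aa was 6.14 times and Cd74 6.31 times.

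Microglial markers did not follow H2-Aa (r = 0.31, adjusted permutation p = 0.405, and -0.08 without the 2 farthest mice), and their highest sum, 447 CPM, was that of MRL replicate 1, which had 2.6 CPM of H2-Aa. Dendritic cell markers (r = -0.34), B cell markers (r = -0.19), T cell markers (r = 0.40) and markers of monocytes and neutrophils (r = 0.47) had adjusted permutation p-values of 0.353, 0.622, 0.332 and 0.233. These sums mostly hold their most abundant genes, Flt3 and Zbtb46 for dendritic cells, Ighm for B cells and Trbc2 for T cells. Single markers had r of -0.66 to 0.49 for dendritic cells, -0.22 to 0.40 for B cells and 0.29 to 0.64 for T cells. Of the 6 T cell markers, 3 were above 0.5, at levels of at most 0.352 CPM. The T cell sum of MRL replicate 4 was 2.23 times the median of the other mice, and the highest was that of MRL replicate 3 (4.46 CPM). For dendritic cell and B cell markers MRL replicate 4 was at 0.988 and 0.735 times. In MRL replicate 4, Ccr7 of the 7 dendritic cell markers had 0 counts. The sum over monocyte and neutrophil markers was highest in MRL replicate 2 (28.3 CPM), where H2-Aa was at 1.87 CPM, and was 21 CPM in MRL replicate 4. The monocyte genes of this list, Ccr2 and Ly6c2, were highest in MRL replicate 4, at 3.95 and 6.42 times the median of the other mice, and their r with H2-Aa was 0.64 and 0.67 over all mice and -0.06 and -0.03 without the 2 farthest.

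Markers of red cells (r = 0.73, adjusted permutation p = 0.0176), endothelium (r = 0.71, adjusted permutation p = 0.024) and meninges and fibroblasts (r = 0.69, adjusted permutation p = 0.024) were correlated with H2-Aa over all mice. By ranks, rho was 0.67, 0.51 and 0.78, and the one for endothelium did not pass (adjusted permutation p = 0.207). Without the 2 farthest mice, r was 0.46 for red cells, 0.14 for endothelium and 0.68 for meninges and fibroblasts. Red cell markers were as high in MRL replicate 1 (369 CPM) as in MRL replicate 4 (356 CPM), with class II at 2.6 and 13.8 CPM of H2-Aa. Endothelial markers summed to 226 CPM in MRL replicate 4 against 48 to 123 CPM in the other mice, and all 5 of them were highest there. Choroid plexus markers ranged from 65.3 to 7750 CPM without following H2-Aa (r = 0.31, rho = 0.04). For markers of astrocytes, hippocampus and striatum, r was -0.05, -0.15 and -0.26. The part of these cells in the class II levels was not tested.

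**Figure D3:**
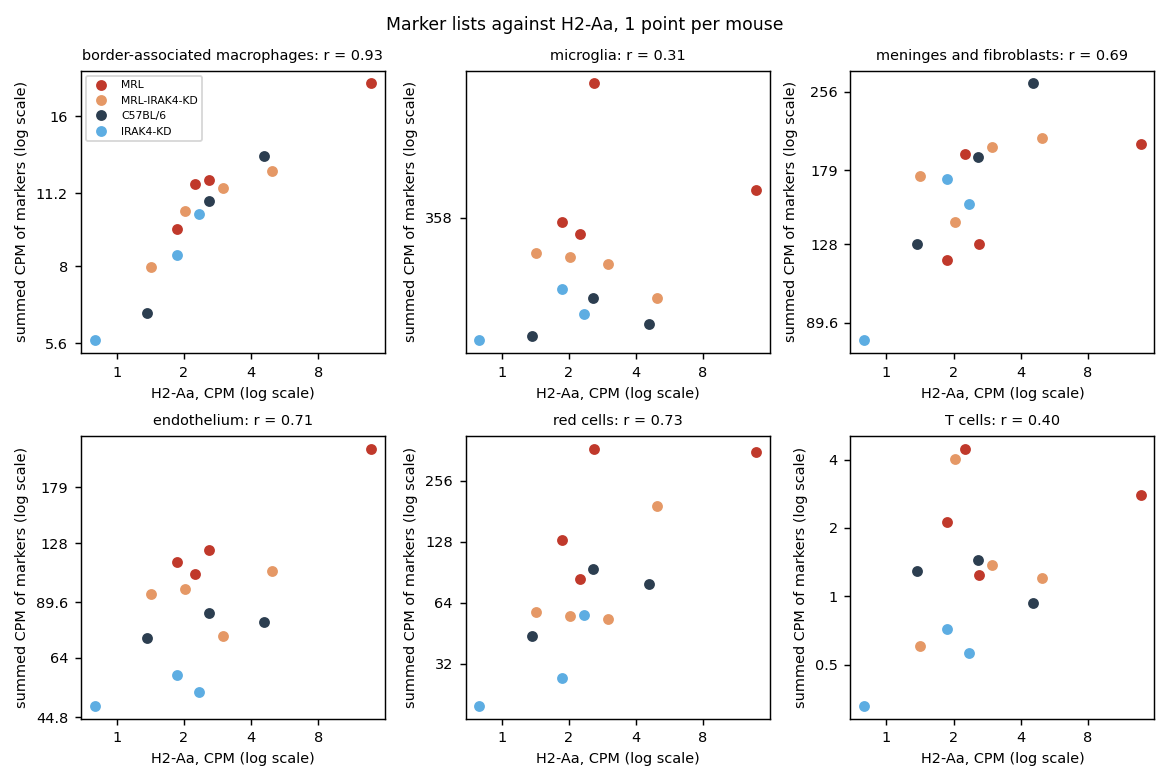
Summed CPM of 6 marker lists against CPM of H2-Aa (both axes log scale), 1 point per mouse, colored by group, with Pearson's r over the 14 mice. Border-associated macrophage markers lie along a line (r = 0.93), microglial markers do not (r = 0.31), and endothelial markers are highest in the mouse with the most H2-Aa (226 CPM).

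The first comparison asks whether kinase-dead IRAK4 changes class II expression in lpr mice. By edgeR's quasi-likelihood test none of the 7 members was called (adjusted p below 0.05) when MRL were set against MRL-IRAK4-KD animals, where 0.0972% of the 38070 genes tested were called, and none had an unadjusted p below 0.05, where 11.4% of genes did. DESeq2 and limma-voom called 0 members as well, here and in every other comparison. H2-Aa averaged 5.13 ± 5.79 CPM (SD) over the 4 MRL mice and 2.86 ± 1.56 CPM over the 4 MRL-IRAK4-KD mice, and the log2 fold change was 0.84 ± 0.64 (SE, edgeR, adjusted p = 0.581). Cd74 averaged 10.9 ± 12.6 and 7.15 ± 6.81 CPM, a log2 fold change of 0.61 ± 0.71 (edgeR, adjusted p = 0.737). The log2 fold changes of the 7 members ran from -0.28 (H2-DMa) to 0.84 with a median of 0.48, beside a median of 0.00 over all genes tested.

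The higher values of the class II chains, Cd74 and H2-DMb1 in MRL mice rested on MRL replicate 4. Without it their log2 fold changes turned to -0.33 for H2-Aa, -0.62 for H2-Ab1, -0.18 for H2-Eb1, -0.60 for Cd74 and -0.17 for H2-DMb1. Ciita went from 0.48 to 0.19 ± 0.27 without MRL replicate 4, and H2-DMa went from -0.28 to 0.00 without MRL-IRAK4-KD replicate 4. Without that library the class II chains and Cd74 had larger values, 1.26 for H2-Aa, 1.10 for H2-Ab1, 1.04 for H2-Eb1 and 1.53 for Cd74, with adjusted p-values of 0.621 to 0.68 by edgeR. Without both and the library labelled IRAK4-KD replicate 3, a choice made after the data had been seen, they were 0.07 ± 0.38 for H2-Aa, 0.13 ± 0.38 for H2-Ab1, 0.24 ± 0.31 for H2-Eb1 and 0.28 ± 0.33 for Cd74.

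The second comparison sets lpr mice beside controls. No member was called between MRL and C57BL/6 mice by edgeR, where 0% of all genes were called, and none had an unadjusted p below 0.05, where 5.55% of genes did. Over all genes DESeq2 called 203 and limma-voom 38 in this comparison, none of them a member. The log2 fold change was 0.85 ± 0.70 for H2-Aa, 0.95 ± 0.72 for H2-Ab1, 0.46 ± 0.57 for H2-Eb1 and 0.97 ± 0.78 for Cd74 (edgeR, adjusted p of 0.993 to 1). Without MRL replicate 4 the 4 values were -0.33, -0.01, -0.32 and -0.27. The order of the groups depended on how they were summarised: H2-Aa was highest in MRL mice by the mean, and highest in C57BL/6 mice by the median (2.58 CPM, against 2.42 in MRL, 2.51 in MRL-IRAK4-KD and 1.86 in IRAK4-KD mice). Neighbours in this order did not differ beyond their spread.

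In the groups that the labels give without lpr, all 7 members had a negative log2 fold change in IRAK4-KD against C57BL/6 mice, the library without full-length Fas included, from -0.77 ± 0.74 for H2-Aa to -0.02 ± 0.29 for H2-DMb1. None was called, where 0.147% of all genes were, and none had an unadjusted p below 0.05, where 3.8% did. Ciita had the lowest unadjusted p (log2 fold change -0.62 ± 0.34, edgeR, unadjusted p = 0.0872), with its value resting on single C57BL/6 mice. Without C57BL/6 replicate 1, which had 2.07 CPM, it was -0.23 ± 0.33 (edgeR, unadjusted p = 0.494), and without C57BL/6 replicate 2 it was -0.87 ± 0.34 (edgeR, unadjusted p = 0.0241, adjusted p = 1). Without the library labelled IRAK4-KD replicate 3, the values were -0.43 ± 0.83 for H2-Aa, -0.13 ± 0.84 for H2-Ab1 and -0.23 ± 0.93 for Cd74, and H2-DMb1 turned to 0.12 ± 0.32.

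Between MRL-IRAK4-KD and IRAK4-KD mice, no member was called, where 0.0735% of all genes were, and 1 of 7, H2-DMa, had an unadjusted p below 0.05, where 8.63% of genes did. H2-DMa was at 14.7 ± 5.2 CPM (n = 4) in MRL-IRAK4-KD and 10.9 ± 0.303 CPM (n = 3) in IRAK4-KD mice, and its log2 fold change was 0.44 ± 0.20 (edgeR, unadjusted p = 0.0438, adjusted p = 0.553). All 4 MRL-IRAK4-KD mice lay above the 3 IRAK4-KD mice, the lowest at 11.1 CPM against 11. Without MRL-IRAK4-KD replicate 4 the value was 0.16 ± 0.10 (edgeR, unadjusted p = 0.123), and without the library labelled IRAK4-KD replicate 3 it was 0.45 ± 0.24 (edgeR, unadjusted p = 0.0799). H2-Ab1 had the largest log2 fold change of the members, 1.11 ± 0.73 (edgeR, adjusted p = 0.588), which came to 0.34 ± 0.72 once MRL-IRAK4-KD replicate 4 was left out.

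The interaction asks whether the difference made by kinase-dead IRAK4 was another one with lpr than without. No member was called, where 0.00263% of all genes were, and none had an unadjusted p below 0.05, where 4.17% did. The log2 difference of differences was -0.08 ± 0.97 for H2-Aa, 0.16 ± 1.00 for H2-Ab1, 0.01 ± 0.79 for H2-Eb1 and -0.04 ± 1.08 for Cd74, so that the SE was close to 1 log2 unit for each of the 4 genes. Of 28 exact 2-sided permutation tests on single members, 7 in each of the 4 comparisons of 2 groups, none had a p below 0.05, and the smallest Benjamini-Hochberg adjusted p was 0.864. With 3 mice against 3 such a test cannot go below 0.1, and with 4 against 4 or 4 against 3 it cannot go below 0.0286. The comparisons share groups and are not independent of each other.

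**Figure D4:**
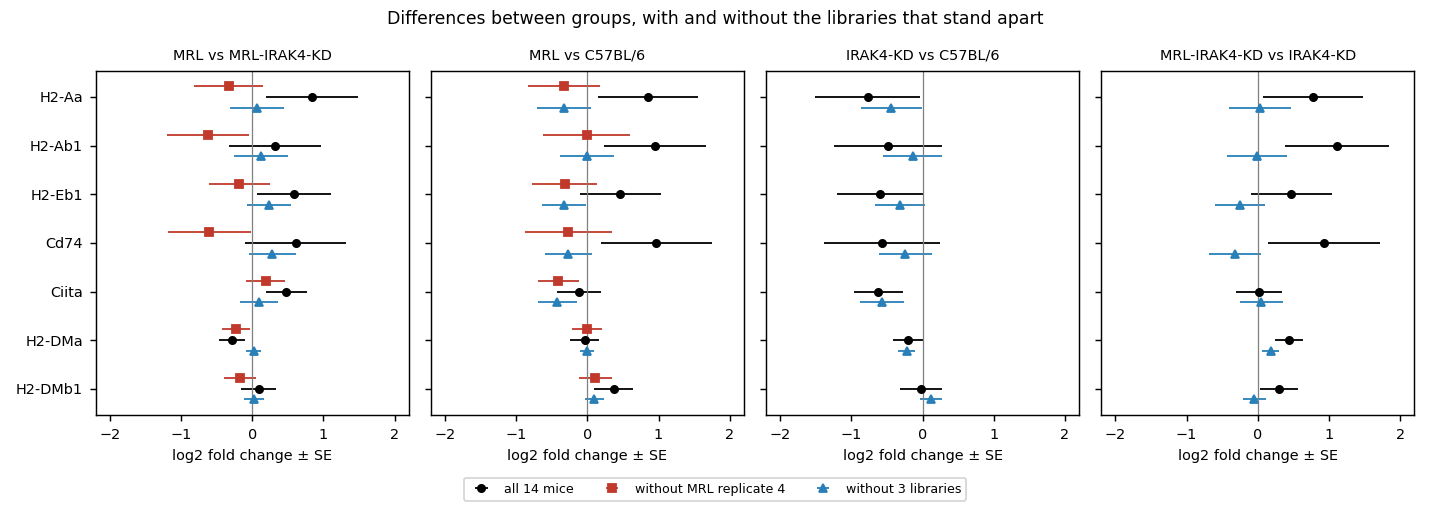
Log2 fold change (± SE) of each class II gene in 4 comparisons, from all 14 mice (black), without MRL replicate 4 (red) and without the 3 libraries that stand apart (blue). In both comparisons of MRL mice the class II chains and Cd74 lie above 0 with all mice and below 0 without MRL replicate 4 (H2-Aa at 0.84 and -0.33 against MRL-IRAK4-KD mice).

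Alternative forms of Cd74 changed place between mice. Cd74 lies on chromosome 18 (60803848 to 60812652 in mm10, plus strand), and its coding transcripts of 215 and 279 codons hold nearly all of its counts in the transcript table. The longer one carries an extra exon. Its share of the counts on both was 48.4%, 52.3%, 21.6% and 17.7% in MRL, 52.2%, 46%, 21.9% and 36% in MRL-IRAK4-KD, 42.1%, 31.1% and 36.4% in C57BL/6 and 40%, 33.3% and 32.5% in IRAK4-KD mice. The mouse with the most Cd74, MRL replicate 4, had the lowest share of the long form, with 2512 counts beside 11706 on the short form, and the groups overlapped. StringTie divides reads among forms by estimate, and these shares were given no test.

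Ciita has 3 clusters of annotated starts, which are used by different cell types. Transcripts from the first cluster had 712 counts in MRL replicate 4 and 50 to 386 in the other mice. Those from the second had 538 counts in C57BL/6 replicate 1 and 0 to 198 elsewhere. Those from the third had 40 to 146 counts in all mice, with 107 in MRL replicate 4. Nearly all counts of the third were on a short annotated form of 78 codons, and its form of 1075 codons had 0 counts in every mouse. The high Ciita of MRL replicate 4 and of C57BL/6 replicate 1 thus came from different starts, on counts that StringTie apportioned.

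Of 43 other genes of the class II pathway in the table, 42 were tested. Set against MRL-IRAK4-KD animals, MRL mice had a higher level of 9 of them and a lower level of 1 at an unadjusted p below 0.05, beside 11.4% of all genes, and none was called. Their median log2 fold change was 0.22, beside 0.00 for all genes. Without MRL replicate 4, 4 had a higher and none a lower level, where 2633 of all genes passed. Without MRL-IRAK4-KD replicate 4, 11 had a higher and none a lower level, with 1 called, where 52 of all genes were called. Fits that left out 1 mouse had 2633 to 5875 of all genes past the unadjusted threshold in this comparison. Without the 3 libraries that stand apart, 7 had a higher and 1 a lower level, with 1 called. The percentages given here are those of the fit of all mice, and fits without some libraries had other shares of all genes. The closing part gives genes passing in such fits, mostly as ranges, so the counts without some libraries cannot be judged against these percentages. In the other comparisons no gene of the lists was called. At the unadjusted threshold 5 were higher and none lower in MRL than in C57BL/6 mice (5.55% of all genes), with 2 higher without MRL replicate 4 and 10 higher without the 3 libraries. More of all genes passed in this comparison without the 3 libraries as well, as given in the closing part. In IRAK4-KD against C57BL/6 mice (3.8% of all genes) 2 were higher and 3 lower, and 1 and 1 without the library labelled IRAK4-KD replicate 3. In MRL-IRAK4-KD against IRAK4-KD mice (8.63% of all genes) 4 were higher and 4 lower, which became 1 and 2 without that library and 0 and 4 without the 3. The interaction had 4 genes past it (4.17% of all genes), Jak2, Ifng, Cd4 and Cxcr2, all with a negative value, and that of Cd4 went from -3.39 ± 1.29 to -0.01 ± 0.65 without the library labelled IRAK4-KD replicate 3. With 1 of the 3 libraries left out, 2 to 6 genes were past it, and 5 without all 3, each with a negative value. Over all genes, 1099 to 2274 passed in the interaction with 1 mouse left out, and the number without all 3 is not given here.

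In the list of interferon gamma signaling to Ciita, Irf1 and Jak2 were among the genes past the unadjusted threshold. Irf1 had 9.13, 9.24, 7.03 and 16.8 CPM in MRL against 8.32, 8.16, 7.59 and 4.46 CPM in MRL-IRAK4-KD mice, and the log2 fold change was 0.56 ± 0.24 (edgeR, unadjusted p = 0.0368, adjusted p = 0.439), and 0.26 ± 0.20 without MRL replicate 4, 0.40 ± 0.22 without MRL-IRAK4-KD replicate 4 and 0.08 ± 0.12 without the 3 libraries. MRL replicate 4 was thus the highest mouse for Irf1, and MRL-IRAK4-KD replicate 4, second in class II, was the lowest of the 14. Jak2, a kinase of the interferon gamma receptor, had a log2 fold change of 0.47 ± 0.20 (edgeR, unadjusted p = 0.0326, adjusted p = 0.437). In MRL-IRAK4-KD replicate 4 it was at 15.3 CPM against 31.3 to 43.3 CPM in the other mice. Without that library the value was smaller with a smaller SE (0.26 ± 0.09, edgeR, unadjusted p = 0.00843, adjusted p = 0.415). It was 0.44 ± 0.22 without MRL replicate 4 (edgeR, unadjusted p = 0.0732) and 0.22 ± 0.07 without the 3 libraries (edgeR, unadjusted p = 0.00989, adjusted p = 0.636). Ifng itself had 14 counts in MRL replicate 4, 7 in MRL-IRAK4-KD replicate 1, 14, 15 and 2 in the IRAK4-KD mice and 0 in the other 9. The reads behind these low counts are not known, and no limit is set on the counts of 0. The IRAK4-KD mice with 14 and 15 counts had 2.34 and 1.86 CPM of H2-Aa. Socs1, an inhibitor of this pathway, had a log2 fold change of -1.11 ± 0.36 in IRAK4-KD against C57BL/6 mice (edgeR, unadjusted p = 0.00804, adjusted p = 1), and Ifngr1, a chain of the receptor, one of 0.30 ± 0.12 in MRL against C57BL/6 mice (edgeR, unadjusted p = 0.0256, adjusted p = 0.887, and unadjusted p = 0.0636 without MRL replicate 4).

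Of 6 costimulatory genes, Cd274, Cd80, Cd86 and Cd40 were past the unadjusted threshold between the lpr groups, each with the higher level in MRL, beside 11.4% of all genes past it in either direction, and none was called. Cd274, which encodes the inhibitory ligand PD-L1, had 3.41, 2.98, 2.33 and 17.4 CPM in MRL and 1.79, 2.5, 2.69 and 1.08 CPM in MRL-IRAK4-KD mice, and the log2 fold change was 1.70 ± 0.55 (edgeR, unadjusted p = 0.00781, adjusted p = 0.408). Here too 1 mouse was high, and the value was 0.54 ± 0.29 without it. Cd80 had 0.888, 0.861, 0.845 and 0.98 CPM against 0.784, 0.561, 0.618 and 0.338, and all 4 MRL mice lay above all 4 MRL-IRAK4-KD mice (0.63 ± 0.24, edgeR, unadjusted p = 0.0192, and 0.0439 without MRL replicate 4). MRL mice were not above the controls, at 1.11, 0.887 and 0.696 CPM in C57BL/6 and 0.993, 0.993 and 0.919 CPM in IRAK4-KD mice. For Cd80 the log2 fold change was -0.01 ± 0.26 in MRL against C57BL/6 mice (edgeR, unadjusted p = 0.981). In MRL-IRAK4-KD against IRAK4-KD mice it was -0.75 ± 0.26 (edgeR, unadjusted p = 0.011, adjusted p = 0.553), and -0.60 ± 0.23 without the 3 libraries (edgeR, unadjusted p = 0.0239). Cd86 had 3.22, 2.69, 2.37 and 2.92 CPM against 2.13, 2.34, 2.36 and 1.87 (0.36 ± 0.15, edgeR, unadjusted p = 0.0299, and 0.0555 without MRL replicate 4). Its groups were apart only by 2.37 against 2.36 CPM. How many of all genes keep groups apart was not counted, so the separations of Cd80, Cd86, H2-DMa, Lag3 and Ctss are descriptions only. Cd40 was at 0.115 to 0.426 CPM in these 8 mice (0.82 ± 0.33, edgeR, unadjusted p = 0.0259), with MRL replicate 1 and not replicate 4 at the top.

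Lag3, an inhibitory receptor that binds class II, had 8.25, 7.73, 6.67 and 8.5 CPM in MRL, 4.3, 4, 4.47 and 8.49 in MRL-IRAK4-KD, 4.75, 5.43 and 6.11 in C57BL/6 and 3.69, 3.74 and 2.58 in IRAK4-KD mice. The 4 MRL mice lay above all other mice except MRL-IRAK4-KD replicate 4. The log2 fold change of MRL against MRL-IRAK4-KD mice was 0.55 ± 0.22 (edgeR, unadjusted p = 0.0276, adjusted p = 0.437), and with MRL-IRAK4-KD replicate 4 left out it was 0.88 ± 0.14 (edgeR, adjusted p = 0.0219). Of the pathway genes, Lag3 was the one called without the 3 libraries that stand apart (0.83 ± 0.12, edgeR, adjusted p = 0.0174). In IRAK4-KD against C57BL/6 mice the value for Lag3 was -0.70 ± 0.26 (edgeR, unadjusted p = 0.0173, adjusted p = 1), and in MRL-IRAK4-KD against IRAK4-KD mice 0.67 ± 0.25 (edgeR, unadjusted p = 0.0164, adjusted p = 0.553). Without the library labelled IRAK4-KD replicate 3 neither passed the unadjusted threshold, at -0.55 ± 0.29 (edgeR, unadjusted p = 0.0787) and 0.51 ± 0.27 (edgeR, unadjusted p = 0.0824). The latter was 0.35 ± 0.15 without MRL-IRAK4-KD replicate 4, and without the 3 libraries the values were -0.55 ± 0.14 (edgeR, unadjusted p = 0.00171, adjusted p = 0.308) and 0.20 ± 0.14 (edgeR, unadjusted p = 0.169). Cd4, which encodes the activating coreceptor for class II, was at 5.98 CPM in 1 animal, labelled IRAK4-KD replicate 3, and at 0.154 to 0.928 CPM in the other 13 mice. The same library had the lowest sum of T cell markers (0.33 CPM) and the highest of striatal markers (258 CPM). Which cells held its Cd4 was not tested. The log2 fold change of Cd4 between IRAK4-KD and C57BL/6 mice was 2.91 ± 1.02 (edgeR, unadjusted p = 0.0127) with that library and -0.47 ± 0.49 without it.

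Among processing genes, Ctss, which encodes the protease that degrades the invariant chain, had 102, 79.7, 73.8 and 103 CPM in MRL, 73.2, 68.7, 69.4 and 94.5 in MRL-IRAK4-KD, 62.2, 61.1 and 62.4 in C57BL/6 and 62.1, 67.2 and 56.9 in IRAK4-KD mice. All 4 MRL mice lay above all 3 C57BL/6 mice (log2 fold change 0.53 ± 0.14, edgeR, unadjusted p = 0.00209, adjusted p = 0.558), and the value was 0.48 ± 0.14 without MRL replicate 4 (unadjusted p = 0.00593). Ctsl, another lysosomal protease, had a smaller difference in the same comparison (0.24 ± 0.10, edgeR, unadjusted p = 0.0245, adjusted p = 0.882). Markers of microglia, which express Ctss, summed to 349 to 447 CPM in MRL and 295 to 314 CPM in C57BL/6 mice, and their part in the level of Ctss was not tested. Ctsd, a lysosomal aspartic protease, had a log2 fold change of 0.41 ± 0.16 in MRL-IRAK4-KD against IRAK4-KD mice (edgeR, unadjusted p = 0.0248, adjusted p = 0.553), with MRL-IRAK4-KD replicate 4 the highest at 462 CPM. It was 0.22 ± 0.10 without that library and 0.14 ± 0.11 without the 3 (edgeR, unadjusted p = 0.215).

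The factors of the promoter complex varied little outside 1 library. Rfx5, which binds the X box, had 19.2 to 25 CPM in 13 mice and 4.44 CPM in MRL-IRAK4-KD replicate 4, a mouse with 4.99 CPM of H2-Aa. Nfya, a subunit of the Y box factor, had 16.6 to 22.5 CPM in 13 mice and 8.84 CPM in the same library, and its log2 fold change in MRL-IRAK4-KD against IRAK4-KD mice was -0.45 ± 0.19 (edgeR, unadjusted p = 0.0371) and -0.25 ± 0.08 without that library (unadjusted p = 0.00737, adjusted p = 0.373). Rfxap, a partner of Rfx5, differed little in MRL against MRL-IRAK4-KD mice (-0.25 ± 0.12, edgeR, unadjusted p = 0.0473, adjusted p = 0.439), and the value was -0.18 ± 0.12 without MRL replicate 4.

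Of the other class II genes, H2-Ea, the partner of H2-Eb1, is annotated as the pseudogene H2-Ea-ps and had 0 counts in all 14 libraries. H2-Eb2 had 17 counts in MRL replicate 4, 10 and 18 in MRL-IRAK4-KD replicates 1 and 3, 10 in IRAK4-KD replicate 3, as labelled, and 0 elsewhere. H2-Oa, a subunit of the H2-DM inhibitor H2-O, had a log2 fold change of 0.95 ± 0.35 in MRL-IRAK4-KD against IRAK4-KD mice (edgeR, unadjusted p = 0.0175, adjusted p = 0.553) at levels of 0.183 to 0.795 CPM, and 0.64 ± 0.30 without MRL-IRAK4-KD replicate 4 (unadjusted p = 0.0528). Mif, a cytokine that binds the invariant chain at the cell surface, had 144 CPM in MRL-IRAK4-KD replicate 4 and 34.6 to 57.8 CPM in the other mice, and its difference between MRL-IRAK4-KD and IRAK4-KD mice (0.82 ± 0.32, edgeR, unadjusted p = 0.0231) was 0.17 ± 0.14 without the 3 libraries that stand apart. Cxcr2 encodes a chemokine receptor that acts with Cd74 as a receptor for Mif and is abundant in neutrophils. Its counts were 44, 143, 10 and 76 in MRL mice and 0 in all 4 MRL-IRAK4-KD mice, with no limit set on the 0. The C57BL/6 mice had 0, 11 and 0 counts and the IRAK4-KD mice 13, 4 and 10.

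**Figure D5:**
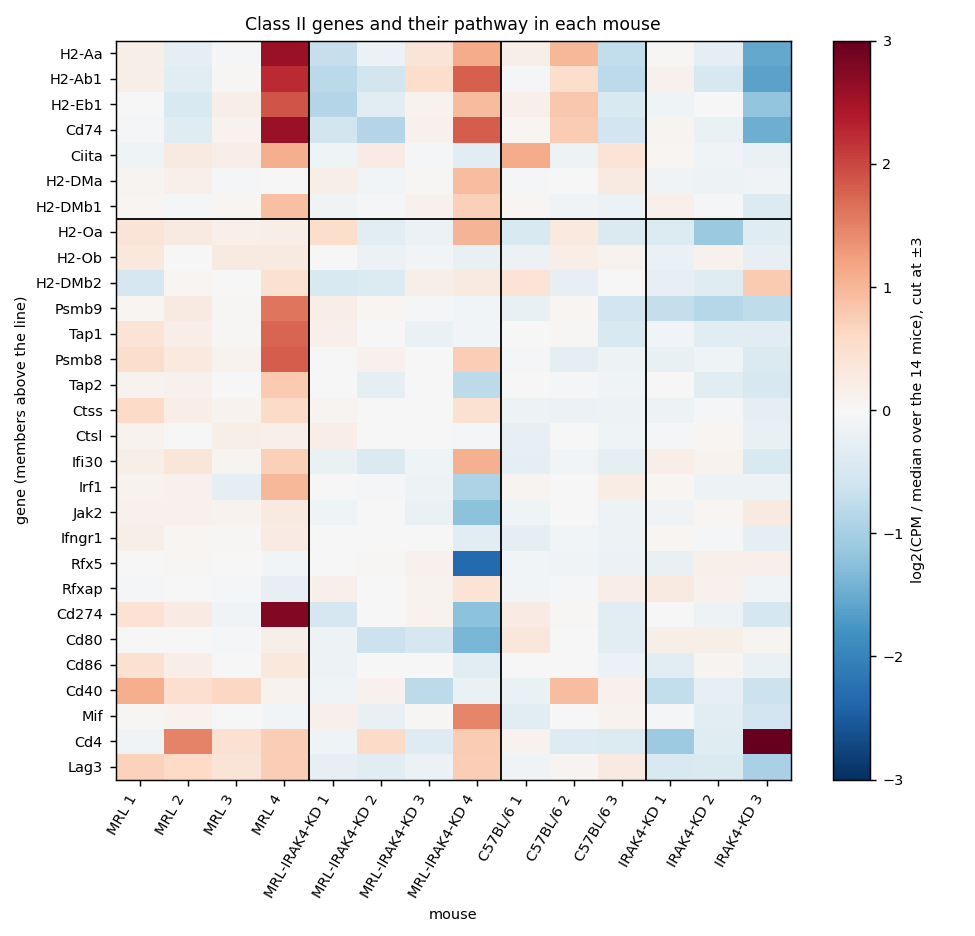
Level of the class II genes (above the line) and of other genes of the pathway or between the chromosome 17 members in each mouse, as log2 of CPM over the median of the 14 mice, cut at ±3. MRL replicate 4 is high for the class II chains, Cd74, Cd274, Tap1, Psmb8 and Irf1, whereas MRL-IRAK4-KD replicate 4 is high for the class II chains, Cd74, H2-DMa and Mif and low for Irf1 and Rfx5.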

How the data were processed

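RNA was taken from the hippocampus of 14 mice, 1 library per mouse. The authors deposited gene and transcript counts, made per the labels and the study's methods by aligning single-end reads to mm10 with HISAT2 2.1.0, sorting with SAMtools 1.9 and counting with StringTie 2.1.0, whose counts are derived from coverage and are not independent molecules. The labels name an mRNA HyperPrep kit and the methods a SMART-seq kit, and the annotation and strand setting are not given in the sources used here. All 55536 Ensembl identifiers matched GENCODE M21, and other rows (26345, at most 0.188% of the counts of a library) were left out.

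Genes reaching 10 counts over all libraries entered 1 model of the 4 groups with edgeR 4.0.16 (TMM, robust quasi-likelihood test) in R 4.3.3, with Benjamini-Hochberg adjustment over 38070 genes, after the scripts had been tested on simulated data. limma 3.58.1 and DESeq2 1.42.0 gave alternatives. Correlations used log2(CPM + 0.1) and 100000 permutations, and single members were also tested by exact permutation of mice (SciPy 1.17.1 under Python 3.11.15). Levels per kilobase divide transcript counts by transcript length.

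The members and all lists were chosen with earlier results of these data known. Genes named are all members, the pathway genes past a threshold in the fit of all mice, a fixed set of pathway genes, the 2 label checks and the 10 genes most correlated with H2-Aa, except where a result is not reported here. Ttr, H2-Eb2, H2-DMb2 and the genes between the members were named after their values were seen. The labels do not say whether replicates differ in more than the animal, and p-values measure the spread between these libraries. No upper limit is given for a count of 0, since the reads behind the counts are not known.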

Additional observations from a re-analysis of the deposited data

Results flagged for a closer look

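In a test of the gap between the highest or lowest sample and its neighbour, relative to the range of the group (Dixon's test, groups of 4), MRL replicate 4 stood outside its group for 5 members, H2-Aa at 13.8 CPM, H2-Ab1 at 7.29 CPM, H2-Eb1 at 7.92 CPM, Cd74 at 29.8 CPM and H2-DMb1 at 3.27 CPM. The gap took up 0.867 to 0.944 of the range of the MRL mice. Of 14 group and gene pairs tested 5 stood out, where chance gives about 1 in 20, and the 5 genes vary together and come from the same mouse, so they amount to a single observation. Ciita and H2-DMa did not stand out in MRL mice, and no member stood out among MRL-IRAK4-KD mice by this test. Groups of 3 mice were not tested.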

How the results depend on the processing

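No member was called at an adjusted p below 0.05 under any alternative run, and 496 of 567 member fold changes kept their direction. Of the 71 that turned, 49 did so when 1 mouse was left out, 12 of them without MRL replicate 4, and 36 belonged to the interaction. Of 19 correlations with H2-Aa, 8 passed by Pearson's r, 7 with a pseudocount of 1 CPM and 8 as deviations from the group means, and by ranks endothelium did not pass. The permutation tests had 0 past the threshold under each alternative. With 3 or 4 mice per group and SEs of 0.52 to 0.82 log2 for the class II chains and Cd74, values as large as 1.11 ± 0.73 (H2-Ab1) did not pass. The reads behind a count are not known, so what depth limits was not tested.

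Leaving out 1 mouse gave, for MRL against MRL-IRAK4-KD, 25 to 52 genes called, 2633 to 5875 at the unadjusted threshold, and log2 fold changes of -0.33 to 1.26 (H2-Aa), -0.62 to 1.10 (H2-Ab1), -0.18 to 1.04 (H2-Eb1), -0.60 to 1.53 (Cd74), -0.37 to 0.00 (H2-DMa) and -0.17 to 0.31 (H2-DMb1). For MRL against C57BL/6 it gave 0 to 6 called, 1462 to 2099 unadjusted, and -0.33 to 1.38 (H2-Aa), -0.01 to 1.31 (H2-Ab1), -0.32 to 0.85 (H2-Eb1), -0.27 to 1.38 (Cd74), -0.41 to 0.27 (Ciita) and -0.10 to 0.06 (H2-DMa). For IRAK4-KD against C57BL/6 it gave 33 to 38 called, 944 to 1393 unadjusted, 0 to 1 members unadjusted (Ciita without C57BL/6 replicate 2) and -0.15 to 0.12 (H2-DMb1). For MRL-IRAK4-KD against IRAK4-KD it gave 11 to 65 called, 1677 to 4524 unadjusted, 0 to 1 members unadjusted and -0.10 to 0.11 (Ciita). The interaction gave 1 to 15 called, 1099 to 2274 unadjusted, 0 to 1 members unadjusted (H2-DMa without MRL-IRAK4-KD replicate 2), and -0.62 to 1.09 (H2-Aa), -0.62 to 1.10 (H2-Ab1), -0.43 to 0.78 (H2-Eb1), -0.95 to 1.17 (Cd74), -0.25 to 0.43 (Ciita) and -0.29 to 0.18 (H2-DMb1).

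DESeq2 called 397, 203, 162, 305 and 60 genes in the 5 comparisons, in the order above with the interaction last, against 37, 0, 56, 28 and 1. limma-voom called 213, 38, 145, 275 and 22, gave 4612, 3490 and 3004 unadjusted for MRL against C57BL/6, IRAK4-KD against C57BL/6 and the interaction, turned Ciita to 0.03 in the first of these and, in the interaction, H2-Aa to 0.03, H2-Ab1 to -0.13 and H2-Eb1 to -0.25, and left 0 members unadjusted for MRL-IRAK4-KD against IRAK4-KD. With only the compared groups, 18, 95 and 6 genes were called and 2372, 2350 and 1586 unadjusted (without MRL against C57BL/6 and the interaction), 3174 were unadjusted for MRL against C57BL/6, and 0 members unadjusted for MRL-IRAK4-KD against IRAK4-KD. Without a filter the interaction had 4 genes called, and with filterByExpr 1045 unadjusted.

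Without the 3 libraries that stand apart, chosen after seeing the data, MRL against MRL-IRAK4-KD had 2302 unadjusted and H2-DMa at 0.02. MRL against C57BL/6 had 10 called, 3593 unadjusted, H2-Aa at -0.33, H2-Ab1 -0.01, H2-Eb1 -0.33 and Cd74 -0.27. H2-DMb1 was at 0.12 in IRAK4-KD against C57BL/6. MRL-IRAK4-KD against IRAK4-KD had 44 called, 0 members unadjusted, H2-Ab1 -0.01, H2-Eb1 -0.25, Cd74 -0.32 and H2-DMb1 -0.05. The interaction had 10 called and H2-Aa at 0.37. The cause of these shifts was not tested.

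The replicate numbers of the labels did not pair the mice, since 4 of 19 same-numbered pairs had deviations correlated above 0.1 (-0.25 to 0.37) and 4 libraries went best with their own number. With the replicate number as a block, MRL against C57BL/6 had H2-Aa at -0.07, H2-Eb1 -0.18 and Cd74 -0.17, MRL-IRAK4-KD against IRAK4-KD had 1853 genes and 0 members unadjusted, H2-Eb1 -0.01 and Ciita -0.04, and the interaction had 2 called, H2-Aa 0.37 and Cd74 0.19.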

Other observations

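Between H2-DMa and H2-Eb1 on chromosome 17 lie class I and class II processing genes that were chosen with their values in view, so their levels are given as a description. Psmb8, an interferon-inducible subunit of the proteasome, had 4.51, 3.8, 3.36 and 11 CPM in MRL mice, 3.14, 3.42, 3.09 and 5.16 in MRL-IRAK4-KD, 3.06, 2.6 and 2.8 in C57BL/6 and 2.65, 2.87 and 2.3 in IRAK4-KD mice. MRL replicate 4 was again the highest mouse, at 3.56 times the median of the others. Tap1, a subunit of the peptide transporter that loads class I, had 12.2 CPM in this mouse (3.41 times the median of the others), and Psmb9 4.55 CPM (3.11 times). In MRL-IRAK4-KD replicate 4, Tap1 and Psmb9 were near the median of the other mice, at 0.926 and 0.923 times it. Psmb8 was second highest in that library, as the class II chains were, at 1.67 times. Tap2, another gene of this stretch, was at 1.72 times in MRL replicate 4 and 0.582 times in MRL-IRAK4-KD replicate 4.

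StringTie divided the counts of H2-DMa among its transcripts unevenly between mice. The share held by 2 of them ran from 13.9% to 85.7% among the MRL-IRAK4-KD mice, and was 85.7% in MRL-IRAK4-KD replicate 4, the mouse with the highest total for H2-DMa. These shares are estimates over a gene that overlaps Brd2.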
